A study of Mus musculus with 2 samples.

Results

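Mir126a, Mir221 and Mir222 are microRNA genes known from blood vessels, and their levels in the embryonic mouse intestine are described here. They were found by their Ensembl identifiers and make up 3 of the 1973 gene rows in the count tables. Small RNA was sequenced from intestine of the B6NCrl mouse strain at embryonic day 14.5, in 2 libraries that the labels number as biological replicates 1 and 2. The labels call each sample the intestine of one pup, yet give its sex as male and female pooled, and both samples carry the same donor identifier. Neither library carries a transgene, a deletion or a treatment, so 1 group was measured and no condition was compared with another. Counts on the gene's own strand totalled 15090126 in replicate 1 and 3903472 in replicate 2, so replicate 1 was 3.87 times deeper. Replicate 1 was collected on day 17 of the month and replicate 2 on day 15, so collection day and replicate cannot be told apart. Levels are shares of those counts scaled to a total of 1000000 (CPM), and means carry the SD of the 2 libraries (n = 2).

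MicroRNAs are short RNAs that are cut from hairpin precursors and repress messenger RNAs, which they find mainly through their seed, bases 2 to 8. miR-126 is made from within Egfl7, a gene that endothelial cells express. It is known to keep developing vessels intact by repressing Spred1 and Pik3r2, inhibitors of the signalling that vascular endothelial growth factor starts. miR-221 and miR-222 come from neighbouring genes, are known to repress the receptor Kit and the cell cycle inhibitor Cdkn1b, and act in endothelium, in vascular smooth muscle and in blood precursors. The tables list microRNA genes, so endothelial messenger RNA was not measured, and the word vascular rests on what these microRNAs are known for. In whole tissue, fewer cells of a type and less RNA per cell cannot be told apart.

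The mature sequences that RefSeq lists show which members could recognise the same targets and which other genes carry the listed seeds. They are RefSeq sequences on GRCm38.p6, written 5′ to 3′ with the seed in capitals. Shown are the 3 members, Mir126b on the opposite strand of Mir126a, and Mir1928, the other gene with a listed seed of a member.
mmu-miR-126a-3p: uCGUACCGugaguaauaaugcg
mmu-miR-126b-5p: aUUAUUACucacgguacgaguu
mmu-miR-126b-3p: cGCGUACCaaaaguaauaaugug
mmu-miR-221-3p: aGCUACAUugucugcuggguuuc
mmu-miR-221-5p: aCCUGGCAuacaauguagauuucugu
mmu-miR-222-3p: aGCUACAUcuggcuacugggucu
mmu-miR-1928: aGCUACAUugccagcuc
miR-221-3p and miR-222-3p share the seed GCUACAU and are identical over their first 8 bases, but match at 11 of 23 positions when aligned from the 5′ end without gaps. miR-126a-3p has another seed, CGUACCG, which no other mature sequence in the RefSeq table has, and its longest run in common with either of them is 3 bases. Mir1928, on chromosome 1, also carries GCUACAU and had 0 counts in both libraries, which, at a limit of 3 counts, leaves room for at most 0.199 CPM (replicate 1) or 0.769 CPM (replicate 2). Counts are given per gene, so the 2 arms of a hairpin cannot be separated.

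The hairpins place each mature RNA that RefSeq lists within its precursor. Capitals mark these mature sequences. For Mir126a and Mir222 RefSeq lists the 3p arm only, so a seed on their other arm was not compared with any gene.
Mir126a: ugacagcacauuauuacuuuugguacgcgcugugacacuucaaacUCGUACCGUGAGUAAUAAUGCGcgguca
Mir221: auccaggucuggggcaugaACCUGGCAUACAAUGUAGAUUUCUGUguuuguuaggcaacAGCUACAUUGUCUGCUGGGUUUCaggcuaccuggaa
Mir222: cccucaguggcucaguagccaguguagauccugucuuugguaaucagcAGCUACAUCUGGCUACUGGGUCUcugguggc
The hairpins are 73, 95 and 79 bases long for Mir126a, Mir221 and Mir222, and RefSeq and GENCODE release M21 give the same span and letters for all 3. No member's hairpin shared a stretch of 20 bases with a microRNA hairpin elsewhere in the genome. Reads left out because they aligned to several places (26.5% of the reads in replicate 1 and 26.6% in replicate 2) entered none of the counts. Mir23b, Mir27a and Mir199b, named below, do share such stretches, so their levels are uncertain.

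Mir126a was among the most abundant microRNA genes of the tissue, while Mir221 and Mir222 were expressed at moderate levels. Mir126a (ENSMUSG00000065540.1; chr2:26591357-26591429, plus strand) had 354282 counts in replicate 1 and 94364 in replicate 2. These are 23478 CPM (95% Wilson interval 23402 to 23554) and 24174 CPM (24022 to 24327), with a mean of 23826 ± 493 CPM. It stood at place 10 of all genes in replicate 1 and at place 11 in replicate 2. Both libraries gave nearly the same level, and the gene took 2.35% of the counts in replicate 1 and 2.42% in replicate 2. The intervals cover counting error only and not differences between animals, ligation or PCR.

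Mir221 (ENSMUSG00000065422.1; chrX:19146294-19146388, minus strand) had 8226 counts in replicate 1 and 1781 in replicate 2. Its level was 545 CPM (533 to 557) in replicate 1 and 456 CPM (436 to 478) in replicate 2, with a mean of 501 ± 62.8 CPM. Replicate 1 was the higher library, and the counting intervals did not overlap. The gene ranked at place 124 in replicate 1 and 134 in replicate 2, among the 363 genes with at least 10 counts in both libraries, called detected here.

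Mir222 (ENSMUSG00000065471.1; chrX:19146893-19146971, minus strand) had 3407 counts in replicate 1 and 939 in replicate 2. Its level was 226 CPM (218 to 233) in replicate 1 and 241 CPM (226 to 256) in replicate 2, with a mean of 233 ± 10.4 CPM. The intervals of the libraries overlapped, and the gene stood at places 159 and 155. Mir221 lay above 64.5% and Mir222 above 56.5% of detected genes, whose median level was 129 CPM.

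**Figure D1:**
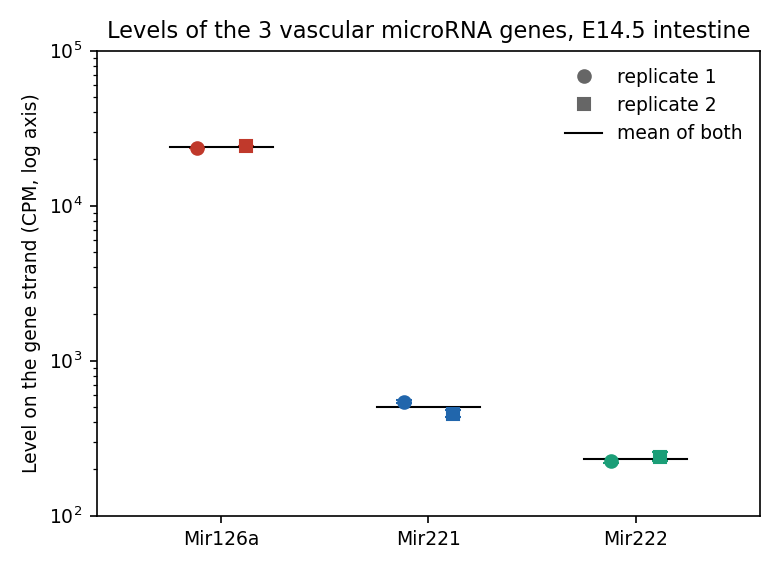
Level on the gene strand of Mir126a, Mir221 and Mir222, in CPM on a log axis, in replicate 1 (circles) and replicate 2 (squares), with 95% Wilson counting intervals as bars and the mean as a line. Mir126a stands near 23826 CPM, far above Mir221 at 501 CPM and Mir222 at 233 CPM, and the gap between genes exceeds the gap between libraries.

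Mir126a exceeded Mir221 and Mir222 together 30.5-fold in replicate 1 and 34.7-fold in replicate 2. A read in these libraries, with inserts under 30 bases, covers 1 mature RNA, so these ratios compare counts and were not divided by hairpin length. The log2 ratio was 5.02 ± 0.13, and its gap of 0.19 between the libraries was small beside it. Per base of annotated hairpin the mean log2 ratio was 5.31. Some sequences ligate and amplify better than others, so counts do not equal molecules. The ratio was not tested, since 2 libraries are too few for an exact test to reach the threshold of 0.05.

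In the order of levels, several neighbours of the members could not be separated from them by the spread of the libraries. Mir23b, of a family with endothelial functions and with copies elsewhere, had 24075 ± 2164 CPM, and was below Mir126a in replicate 1 (22545 CPM) and above it in replicate 2 (25606 CPM). Mirlet7i, next below at 22671 ± 945 CPM, stayed under Mir126a in both libraries, as did Mir30e at 22223 ± 1663 CPM. Mir130a, known to favour angiogenesis, was next above Mir23b at 28698 ± 169 CPM and exceeded Mir126a in both libraries.

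Mir195a (516 ± 27.7 CPM) and Mir199b (498 ± 22.0 CPM) lay on either side of Mir221, with Mir363 (527 ± 1.56 CPM) and Mir20b (487 ± 22.4 CPM) beyond them. All 4 were within the SD of Mir221. Around Mir222 stood Mir27a (236 ± 17.1 CPM) and Mir32 (235 ± 14.3 CPM) above, and Mir700 (227 ± 15.4 CPM) and Mir152 (217 ± 9.56 CPM) below. The first 3 of these differed from Mir222 by less than its SD, and Mir152 by more. The genes nearest to each member over both libraries, by Euclidean distance of log2 CPM, were Mir23b (0.10), Mirlet7i (0.11) and Mir30e (0.16) for Mir126a. For Mir221 they were Mir199b (0.12), Mir20b (0.13) and Mir363 (0.21), and for Mir222 Mir185 (0.10), Mir485 (0.11) and Mir152 (0.15). With 2 libraries this likeness is mostly one of level.

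**Figure D2:**
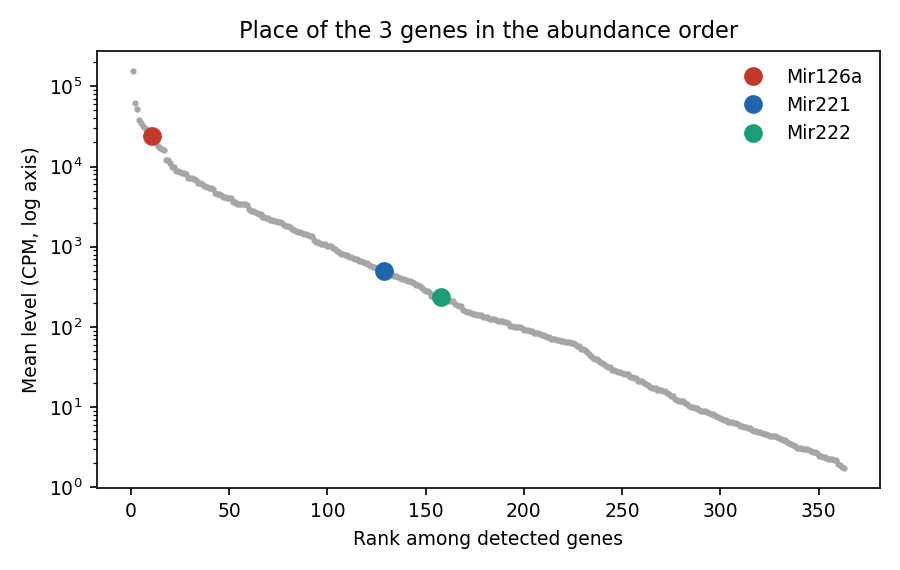
Mean level of each of the 363 detected genes, in CPM on a log axis, against its rank, with the 3 members in colour. Mir126a lies at rank 11 in the steep upper end of the curve, and Mir221 (rank 129) and Mir222 (rank 158) lie in its middle.

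Across the 2 libraries Mir221 differed more than the other members. The log2 ratio of replicate 1 to replicate 2 was 0.26 for Mir221 (95% counting interval 0.18 to 0.33), -0.09 for Mir222 (-0.20 to 0.01) and -0.04 for Mir126a (-0.05 to -0.03). Among detected genes the median was -0.06 and the median size of the difference 0.15. Mir221 differed by more than that median size, with 111 of the 363 genes differing more, while 311 genes differed more than Mir126a and 244 more than Mir222.

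In a two-sided exact binomial test that took the depths of the libraries into account, adjusted by Benjamini-Hochberg over all 363 detected genes, Mir221 was higher in replicate 1 (1.19-fold, adjusted p = 2.06e-11). Mir222 did not pass (adjusted p = 0.161 by the same exact test). Mir126a passed (adjusted p = 1.02e-14, exact test) with a level in replicate 1 that was 0.971 times that in replicate 2. This is a comparison of 2 libraries, not of conditions. It called 2 of the 3 members, beside 43.8% of the 363 genes, 14.0% higher in replicate 1 and 29.8% lower. All 3 members lay above the median level of detected genes, where the exact test calls smaller differences. With only 3 genes, the count of members called is not read as a result about them. The direction for Mir126a depended on the scaling: it was log2 0.03 with edgeR's TMM scaling and 0.02 with DESeq2 size factors, where Mir126a was higher in replicate 1. Without Mir143 in the total the difference was -0.0047 and did not pass (adjusted p = 0.523, exact test). With TMM 80 genes were called higher and 68 lower in replicate 1, against 51 and 108 with library totals.

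**Figure D3:**
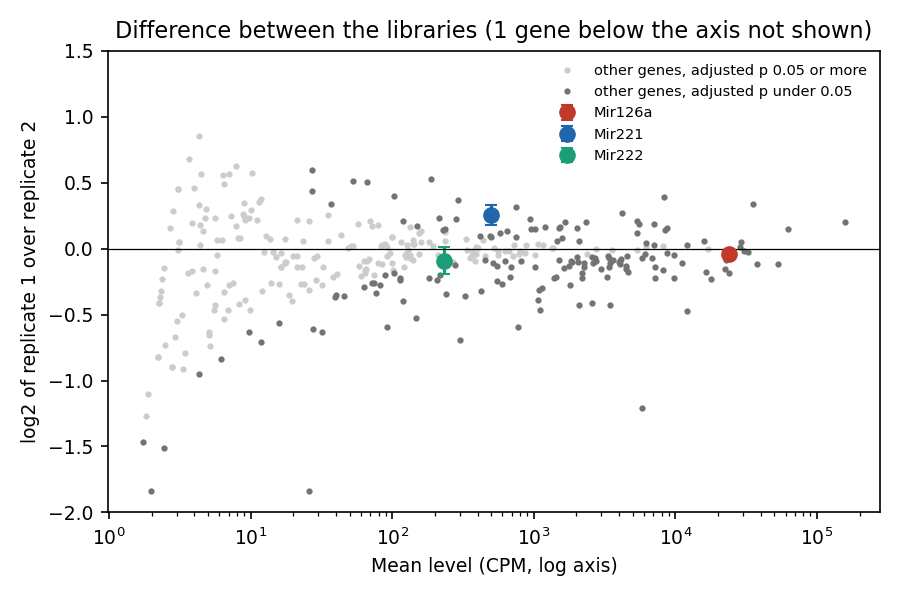
Difference between the libraries, as log2 of replicate 1 over replicate 2, against mean level in CPM on a log axis, for the detected genes; bars on the members are 95% counting intervals. Mir221 at 0.26 lies above 0, while Mir126a (-0.04) and Mir222 (-0.09) lie near it; 1 gene lies below the plotted range.

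Mir221 and Mir222 are neighbours whose shares of their summed counts differed between the libraries. On the minus strand of the X chromosome Mir222 lies upstream of Mir221, 504 bases apart, with no other annotated gene within 10 kb. Their summed level was 771 CPM in replicate 1 against 697 CPM in replicate 2. Mir221 exceeded Mir222 2.41-fold in replicate 1 (95% counting interval 2.32 to 2.51) and 1.90-fold in replicate 2 (1.75 to 2.05). Mir221 thus made up 70.7% of the summed counts in replicate 1 (Wilson interval 69.9 to 71.5%) and 65.5% in replicate 2 (63.7 to 67.2%), intervals that did not overlap. The higher gene was Mir221 in both libraries, at a mean log2 ratio of 1.10 ± 0.25, or 0.83 per base of hairpin.

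Other neighbouring microRNA genes were mostly further apart in level. Each detected gene was paired with the next detected gene on its strand if that lay within 10 kb. Among the 110 pairs so formed, the median ratio of the higher to the lower gene was 7.65-fold. Mir221 over Mir222, at 2.14-fold, was a smaller ratio than in 87 of the others and a larger one than in 22. Next to it in this order stood Mir667 over Mir495 (2.03-fold) on chromosome 12 and Mir293 over Mir292 (2.19-fold) on chromosome 7. Its gap of 0.35 between the libraries was above the median gap of 0.16, and 20 of the pairs had a larger one. In 65 of the pairs neither gene shares sequence with another locus. Of these, 50 had a larger ratio than Mir221 over Mir222, 14 a smaller one, and 9 a larger gap. The remaining pairs, which also enter the median of 7.65-fold, may lack reads with several alignments, so their ratios are uncertain. Pairs in 1 cluster share genes and are not independent, so these places carry no test.

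**Figure D4:**
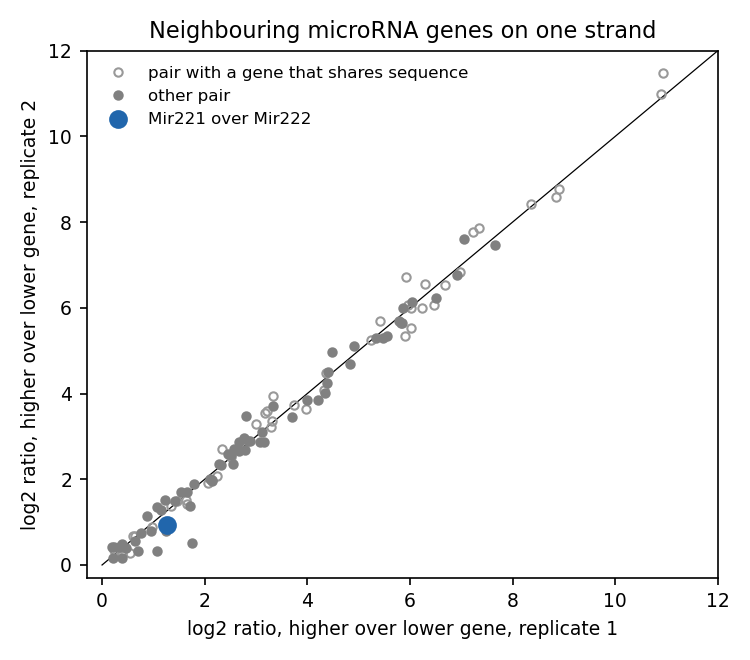
log2 ratio of the higher over the lower gene in replicate 1 (x axis) and replicate 2 (y axis), for 110 pairs of neighbouring microRNA genes on one strand; open points are pairs with a gene that shares sequence, and the line marks equal ratios. Mir221 over Mir222 lies at 1.27 and 0.92, below the line and toward the low end.

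Mir126a overlaps other annotated genes on both strands. GENCODE M21 lists 19 transcripts of Egfl7, and the Mir126a hairpin lies in an intron of 8 of them, 7 of these protein coding. It lies in an exon of 1, a retained-intron transcript, and outside the other 10. A second protein coding gene, Gm20532, also spans the place on the same strand, and Agpat2 lies 1627 bases away on the opposite strand. On the opposite strand Mir126b is annotated at chr2:26591363-26591420, within the span of Mir126a. The first 19 bases of miR-126b-5p, shown above, are the exact reverse complement of part of miR-126a-3p.

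A small number of reads came from the strand opposite Mir126a. There were 115 in replicate 1 and 38 in replicate 2, or 0.0324% (Wilson interval 0.0270 to 0.0389%) and 0.0403% (0.0293 to 0.0552%) of the reads at that place. Both libraries gave the same share within counting error, and the reads amounted to 7.62 and 9.73 CPM in replicates 1 and 2. They are recorded under the identifier of Mir126a, and which arm of Mir126b, if either, they came from is not given in the counts. Mir221 had 0 opposite reads of 8226 in replicate 1, which allows up to 0.0365%, and 0 of 1781 in replicate 2, which allows up to 0.168%. Mir222 likewise had 0 of 3407, which allows up to 0.0881%, and 0 of 939, which allows up to 0.319%. Within each library alone, the zeros do not separate Mir221 or Mir222 from a share such as that of Mir126a. Counts pooled over the libraries were not compared. Closest was Mir221 in replicate 1, where the limit of 0.0365% lay just above the Mir126a share of 0.0324%. Of 182 genes with at least 500 counts on their own strand in both libraries, 158 (86.8%) had no opposite read, and 7 had a higher mean opposite share than Mir126a. Genes near that minimum lack the depth to show a share as low as that of Mir126a, so their zeros do not set Mir126a apart.

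Beside microRNAs known from other cell types of the gut wall, Mir126a stood above the mesenchymal and intestinal epithelial sums and below the smooth muscle and miR-200 sums. Mir143 and Mir145a of smooth muscle, the cell type that wraps vessels and forms the gut muscle, summed to 171529 CPM in replicate 1, against 149642 CPM in replicate 2. Mir126a made up 0.14 and 0.16 of that sum in replicates 1 and 2. Nearly all of the sum was Mir143 (157004 ± 15498 CPM), while Mir145a (3582 ± 21.6 CPM) lay below Mir126a. The miR-200 family, which keeps epithelial identity, summed to 35028 and 42892 CPM, and Mir126a was 0.67 and 0.56 of it. That sum covers 5 genes, each of which lay below Mir126a in mean level, the highest being Mir429 (16430 ± 1398 CPM). Mir126a exceeded the mesenchymal miR-199 and miR-214 genes 2.42-fold in replicate 1 and 2.16-fold in replicate 2, and the intestinal epithelial genes Mir192, Mir194-1, Mir194-2 and Mir215 2.61-fold and 2.13-fold. Mir199 and Mir194 genes share sequence, so reads with several alignments may be missing from these sums.

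Blood cell microRNAs were far below Mir126a and, on their own strand, also below the summed level of Mir221 and Mir222. Erythroid genes (Mir451a, Mir144 and Mir486) summed to 258 CPM in replicate 1, against 409 CPM in replicate 2, and Mir126a exceeded them 90.9-fold and 59.1-fold. The leukocyte genes measured on their own strand (Mir223, Mir155 and Mir150) summed to 448 and 557 CPM. Mir221 and Mir222 together exceeded the erythroid sum 2.98-fold in replicate 1 and 1.70-fold in replicate 2, and the leukocyte sum 1.72-fold and 1.25-fold. Reads on the strand opposite Mir142b, where the leukocyte gene Mir142 is annotated, numbered 8096 in replicate 1 and 2730 in replicate 2 and were outside that sum. With them Mir221 and Mir222 together stood at 0.78 of the leukocyte sum in replicate 1 and 0.55 in replicate 2, so their order depends on the strand counted. Between the libraries the erythroid sum differed by log2 -0.66 and the leukocyte sum by -0.31, both lower in replicate 1, whereas the sum of Mir221 and Mir222 differed by 0.15. All 3 erythroid genes were detected, 1 of them (Mir451a, adjusted p = 8.44e-49 by the exact test) past the threshold and lower in replicate 1, beside 29.8% of all detected genes. The part of blood cells in the counts of Mir126a, Mir221 and Mir222 was not tested.

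**Figure D5:**
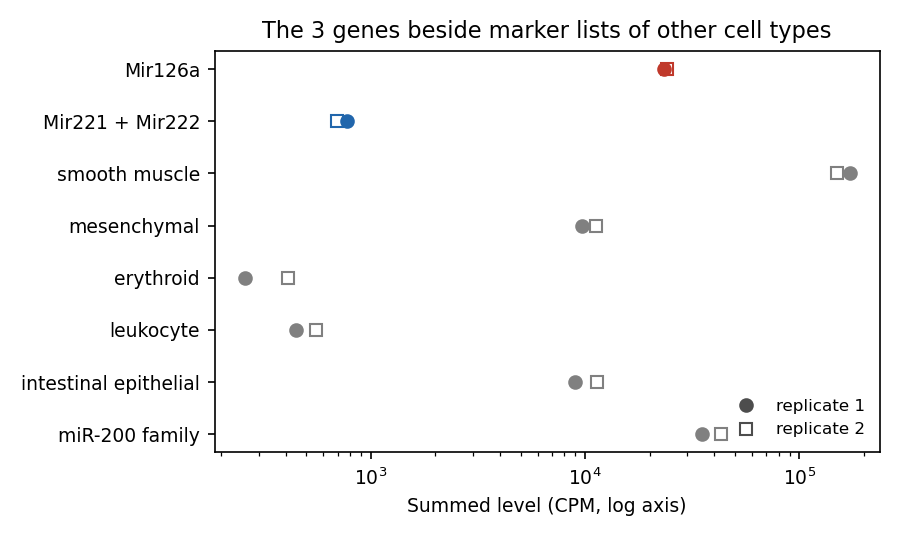
Summed level in CPM, on a log axis, of Mir126a, of Mir221 with Mir222, and of marker lists of other cell types, in replicate 1 (filled circles) and replicate 2 (open squares). Mir126a lies between the mesenchymal and miR-200 sums, and Mir221 with Mir222 lies above the erythroid and leukocyte sums, which leave out reads opposite Mir142b.

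Among microRNAs linked to angiogenesis or to low oxygen, Mir126a was high but not the highest. Of 21 genes listed, 20 were measured and detected, and their summed level was 243207 CPM in replicate 1 against 231831 CPM in replicate 2. Above Mir126a in mean level stood 5 of them, Mir10a (62116 ± 4588 CPM), Mir10b (35182 ± 5748 CPM), Mir17 (30357 ± 246 CPM), Mir130a and Mir23b. Of these, Mir23b was below Mir126a in replicate 1, as given above. In mean level 14 of the 20 genes stood above Mir221. Below Mir222 stood 4. Mir210, which low oxygen induces, stood above Mir221 at 695 ± 47.9 CPM. Between the libraries 9 of the 20 were called higher in replicate 1, 8 lower, and 3 did not pass, beside 14.0% higher and 29.8% lower among all detected genes. Most of the list lay above the median level of detected genes, where the exact test calls smaller differences, and some listed genes share a cluster. The split into higher and lower over all detected genes also changed with the scaling, as given above. These counts are therefore not read as a result about the list. The list had a median log2 difference of -0.03 beside -0.06 for all detected genes. Of the 20 genes 8 share sequence with another locus, so their levels are uncertain.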

How the data were processed

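The deposited tables hold whole-number read counts per gene, 1 table per library, which the authors made against mm10 and GENCODE M4, per the files that accompany them. The aligner, trimming and counting program are not given in the sources used here. File column 2 equals columns 3 and 4 summed in all 1973 gene rows; column 3 was read as the gene's strand and column 4 as the opposite strand. Rows that name no gene, with 12.4% unaligned, 26.5% multiply aligned and 2.20% unassigned reads in replicate 1 and 13.8%, 26.6% and 2.10% in replicate 2, entered no total.

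Column 3 was divided by its total over gene rows and scaled to 1000000 (CPM). Identifiers were matched to GENCODE M21 (GRCm38, the assembly of mm10), where 1894 of 1973 were found, all 3 members with the same version. Exact binomial tests used scipy 1.17.1, with a threshold of 0.05 on Benjamini-Hochberg adjusted p; TMM and size factors came from edgeR 4.0.16 and DESeq2 1.42.0. The binomial test was tested on simulated data that held counting noise alone; it makes no allowance for spread between animals. The libraries differed beyond sampling noise (chi-square 164 per degree of freedom over detected genes) and were kept as 2 replicates.

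The members and the lists were chosen with earlier results of these data known. Named genes are the members, genes over them, within 10 kb of them or with their seeds, those next to them in mean CPM or nearest in both libraries, the marker lists with their most abundant genes, and neighbouring pairs next to Mir221 and Mir222 in ratio. Mir210 was named after its values were seen. Mir18 and Mir92-1 were found by RefSeq synonyms. Mir24-1, Mir142 and Mir142hg were not found among the gene rows by name, nor among detected genes by RefSeq synonym. Mir142b had 0 counts on its own strand. Alternatives were other totals and scalings, both strands counted, no minimum count, hairpin length and leaving out each replicate. P-values set the difference between these 2 libraries against counting noise alone, and they do not measure the spread between libraries or animals.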

Additional observations from a re-analysis of the deposited data

How the results depend on the processing

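Without Mir143 in the total, the levels were 28263 CPM for Mir126a, 595 CPM for Mir221 and 277 CPM for Mir222, and the log2 difference of Mir126a between the libraries was -0.0047, past no threshold (adjusted p = 0.523, exact test). With TMM it was 0.0253 (adjusted p = 6.67e-06, exact test) and with DESeq2 size factors 0.0155 (adjusted p = 0.00963, exact test), the reverse of -0.0422 with library totals. Counting both strands gave Mir126a 23121 CPM, because the total grew. Per base of hairpin the log2 ratio of Mir126a to Mir221 and Mir222 was 5.31, and that of Mir221 to Mir222 0.83, since the hairpins differ in length. Mir221 stayed higher in replicate 1 past the threshold, and Mir222 stayed short of it, under all 5 alternatives tried for each. The genes called between the libraries numbered between 148 and 169, against 159. Leaving out each replicate in turn gave each member the level of the other library, 23478 to 24174 CPM for Mir126a, 456 to 545 for Mir221 and 226 to 241 for Mir222. The log2 ratios then ranged from 4.93 to 5.12 and from 0.92 to 1.27. No paired analysis was possible because there is no second group whose replicates could be paired with these. Depth limits the opposite-strand shares of Mir221 and Mir222, and 2 libraries limit every mean.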
